A study of Mus musculus with 2 samples.

Results

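Gluconeogenesis is the pathway by which the fasted liver makes new glucose from lactate, alanine and glycerol, and 9 of its enzymes and regulators were examined here in the livers of wild-type mice and of mice without Adipoq, which encodes adiponectin, a hormone of fat cells. The 9 genes (Gcgr, Crtc2, Foxo1, Ppargc1a, Pcx, Pck1, Fbp1, G6pc and Slc37a4) were taken by gene symbol from the 13326 symbols of the deposited expression tables. Each had 1 row, so no choice between duplicate rows was needed. The 2 groups were labelled wild type and Adipoq-/-, both of strain C57BL/6J. All animals were males aged 12 weeks and had been fasted overnight, so there was no fed group, and every value describes fasted liver. RNA of 9 to 10 mice of a genotype was combined before sequencing, which left 1 library per genotype and no measure of the variation between animals. The labels do not describe how the Adipoq allele was made. The targeted gene, Adipoq, was not analysed here, and the labels were thus taken without that check. With 1 library per group no difference has a replicate check, and no p-value is given.

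During fasting, glucagon binds its receptor (encoded by Gcgr) on hepatocytes and raises cyclic AMP, which activates the transcription factor CREB and lets the coactivator CRTC2 enter the nucleus. Insulin opposes this by keeping the transcription factor FOXO1 out of the nucleus, and the coactivator PGC-1 alpha (Ppargc1a) amplifies both inputs. The enzymes then act in order: pyruvate carboxylase (Pcx) and phosphoenolpyruvate carboxykinase (Pck1) bypass the pyruvate kinase step, fructose-1,6-bisphosphatase (Fbp1) reverses the phosphofructokinase step, and glucose-6-phosphatase (G6pc) releases glucose inside the endoplasmic reticulum, where its substrate is brought by the transporter encoded by Slc37a4. Adiponectin is known for lowering glucose output from the liver. CRTC2 and FOXO1 are controlled largely by phosphorylation and location, which messenger RNA levels do not show.

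Promoter windows are shown for Pck1, G6pc and Slc37a4, because these were the 3 members whose value was not below wild type in the knockout library on the deposited scale. The windows run from 250 bases before to 50 bases after a RefSeq transcript start on build GRCm38.p6, and are credited to RefSeq. The expression values rest on other builds (mm9 and NCBIM37), so the windows were used for sequence only. Capitals mark matches to the motifs searched on both strands. The first was TGACGTCA, the full cyclic AMP response element. The second was its shorter core TGACG, which every full element also holds. The third was TGTTTAC, a core bound by forkhead factors such as FOXO1. The last was TATAAA, the TATA box.
Pck1: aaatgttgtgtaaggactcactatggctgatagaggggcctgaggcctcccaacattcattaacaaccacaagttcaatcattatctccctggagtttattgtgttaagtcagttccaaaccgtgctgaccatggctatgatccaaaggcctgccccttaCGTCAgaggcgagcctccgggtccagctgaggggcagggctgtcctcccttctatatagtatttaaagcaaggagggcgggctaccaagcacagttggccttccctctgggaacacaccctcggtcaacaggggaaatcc
G6pc: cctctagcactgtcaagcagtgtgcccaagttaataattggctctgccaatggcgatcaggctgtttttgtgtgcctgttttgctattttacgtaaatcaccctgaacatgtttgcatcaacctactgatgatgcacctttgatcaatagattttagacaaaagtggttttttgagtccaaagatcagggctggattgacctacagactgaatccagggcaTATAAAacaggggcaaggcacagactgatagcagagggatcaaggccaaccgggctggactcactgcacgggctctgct
Slc37a4: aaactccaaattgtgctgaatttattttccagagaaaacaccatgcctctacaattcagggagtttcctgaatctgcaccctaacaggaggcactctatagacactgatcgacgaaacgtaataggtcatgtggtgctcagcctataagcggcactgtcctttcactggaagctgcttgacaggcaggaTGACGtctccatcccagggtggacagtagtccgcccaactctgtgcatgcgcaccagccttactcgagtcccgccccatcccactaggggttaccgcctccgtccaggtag
The Pck1 window lies at chr2:173152823-173153122 on the plus strand and holds the cyclic AMP element core, read on the opposite strand, 90 bases before the start. The G6pc window lies at chr11:101367466-101367765 on the plus strand and holds a TATA box that begins 29 bases before the start. The first of 3 Slc37a4 windows lies at chr9:44396696-44396995 on the plus strand and holds the cyclic AMP element core 61 bases before the start. RefSeq windows were matched for 8 of the 9 members by symbol, all but Crtc2, with 11 windows in all. The core was found for 3 members (Pck1, Slc37a4 and Ppargc1a) and occurs in 20.8% of the 32851 promoter windows of the mouse table. The TATA box letters were found for 2 members (G6pc and, in a window not shown here, Slc37a4) and occur in 13.6% of windows. These shares are per window, whereas a member with several windows, such as Slc37a4, had more chances of a match. The full element, held by 1.79% of windows, and the forkhead core, held by 3.65%, were found for 0 members. Only the exact letters were searched, so variant forms of these elements would be missed, and 0 matches does not mean that a promoter lacks such sites. A match of letters is a description of the sequence and not a measured binding site.

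Expression was given as FPKM (fragments per kilobase of transcript and per mapped total), which is scaled to length, so levels of different genes within a library can be set side by side. The members ranged from abundant enzymes to regulators near the limit of measurement. Fbp1 was the highest member in both libraries, at 779 FPKM in wild type against 604 in the knockout. Pck1 was second in both. Gcgr and G6pc were within a few percent of each other in wild type (107 and 106 FPKM), and in the knockout library G6pc took the third place and Gcgr the fourth. Pcx, Slc37a4, Crtc2, Foxo1 and Ppargc1a followed in that order in both libraries. The transcripts of the enzymes and of the glucagon receptor were thus abundant, whereas Foxo1 and Ppargc1a were near or below 1 FPKM. The plot of member levels shows these values.

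**Figure D1:**
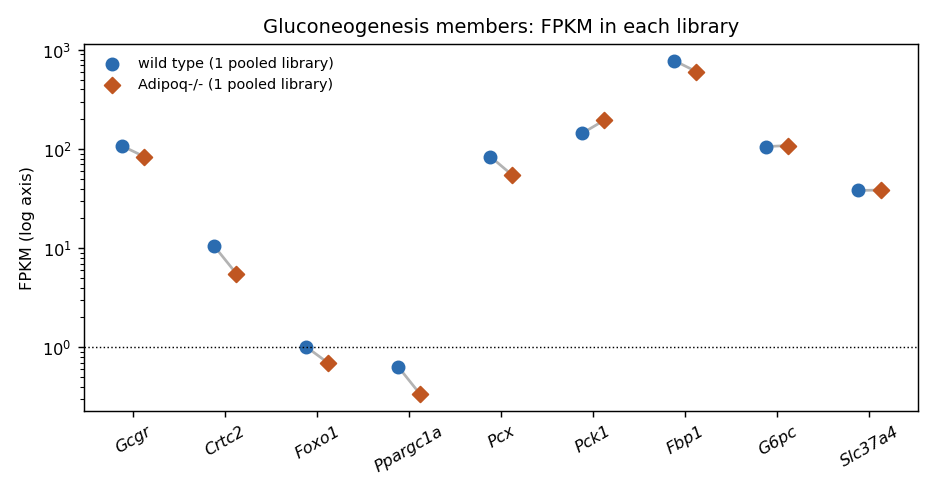
FPKM of the 9 members (log axis) in the wild-type library (circles) and the Adipoq-/- library (diamonds), 1 pooled library each, ordered from receptor to regulators to enzymes. The dotted line is 1 FPKM; Pck1 is higher in the knockout library (145 and 196), Crtc2 lower (10.5 and 5.55), and G6pc and Slc37a4 nearly level.

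The libraries were set against each other as the log2 of knockout over wild-type FPKM, after 1 FPKM was added to each as a pseudocount, which understates differences of low genes. This was done for 11985 genes that reached 1 FPKM in either library. Their median log2 ratio was -0.15, so a relative log2 ratio, with that median subtracted, is given beside the deposited values. Ppargc1a did not reach the minimum, and 8 of the 9 members were measured. A gene was counted as at least 1.5-fold apart when its relative log2 ratio was at or beyond 0.585 in size. Between wild-type and knockout libraries 6.73% of all measured genes were higher and 2.61% lower by this rule. The split depends on the scaling, with 3.23% higher and 6.17% lower on FPKM as deposited and 1.48% and 12.6% after rescaling to equal sums. Of the 8 measured members, 1 was higher (Pck1) and 1 lower (Crtc2), and 6 lay within 1.5-fold. At 2-fold, which 0.884% of all genes passed upwards and 0.476% downwards, there were 0 members in either direction. The members' median relative log2 ratio was -0.15, where all genes have 0 by construction, with 3 members above and 5 below the all-gene median. After correction for transcript length it was -0.08, with 4 members above and 4 below. The share of members past 1.5-fold, 2 of 8 against 9.34% of all genes in either direction, rests on 2 genes, and Pck1 passed by a margin seen only in the third decimal.

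Gcgr encodes the receptor at the top of the pathway. It stood at 107 FPKM in wild type against 83.9 in the knockout library, a fall of 21.9% on the deposited scale. Its relative log2 ratio was -0.20, within 1.5-fold, and 165 of 1282 genes of like level (12.9%) had a lower ratio.

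Among the regulators, Crtc2 was the 1 gene past 1.5-fold. Crtc2, the coactivator that joins CREB at fasting genes, was 10.5 FPKM in wild type against 5.55 in the knockout library. The deposited value was 1.89-fold higher in wild type, and the relative log2 ratio was -0.66. Its ratio lay below that of 98.2% of all measured genes. Among the 3773 genes with a mean FPKM within a factor of 2 of Crtc2, 68 had a lower ratio, and the central 95% of their ratios ran from -0.59 to 0.72. Crtc2 was thus just outside that central range. Its paralogs had lower levels. Crtc3 was 1.82 and 0.954 FPKM in the wild-type and knockout libraries and Crtc1 was 1.43 and 0.928, with relative log2 ratios of -0.38 and -0.18. The level of Crtc2 was 5.78 times that of Crtc3 in wild type and 5.82 times in the knockout library, so the deposited values of both genes differed by nearly the same factor.

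Foxo1, the insulin-restrained forkhead factor, was 1.01 FPKM in wild type against 0.693 in the knockout library. Its relative log2 ratio was -0.10, and at this level the pseudocount takes up much of the difference. With a pseudocount of 0.1 FPKM the relative value was -0.31, and after correction for transcript length it was 0.01, so no direction can be given for Foxo1. Its paralogs Foxo3 (2.02 and 1.54 FPKM) and Foxo4 (4.18 and 3.43 FPKM) had relative log2 ratios of -0.10 and -0.07 and were both more abundant than Foxo1. Ppargc1a was 0.636 FPKM in wild type against 0.335 in the knockout library, below the minimum in both. Neither value can be given an error, since the number of reads behind an FPKM is unknown.

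Among the enzymes, Pck1 and Pcx, which act one after the other, differed in opposite directions. Pck1, which makes phosphoenolpyruvate from oxaloacetate and is often taken as the rate-controlling step, was 145 FPKM in wild type against 196 in the knockout library. This is 1.35-fold on the deposited scale and a relative log2 ratio of 0.59. The ratio of Pck1 was exceeded by 6.70% of all measured genes. Genes as abundant as Pck1 had higher ratios in general. Among 876 genes with a mean FPKM within a factor of 2, the median ratio was 0.24, 138 genes (15.8%) exceeded Pck1, and the central 95% ran from -0.46 to 0.85. Pck1 was inside that range.

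Pcx, which makes oxaloacetate from pyruvate in mitochondria, was 84.0 FPKM in wild type against 54.4 in the knockout library. The deposited value was 35.2% lower in the knockout, and the relative log2 ratio was -0.47, short of 1.5-fold. Among 1550 genes of like level, 51 (3.29%) had a lower ratio than Pcx. The level of Pck1 relative to Pcx was 1.72 in wild type against 3.60 in the knockout library. Such a ratio within a library does not depend on how the libraries are scaled to each other, but it was not corrected for transcript length.

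Fbp1, which removes a phosphate from fructose-1,6-bisphosphate, was 779 FPKM in wild type against 604 in the knockout library, a fall of 22.5% as deposited. Its relative log2 ratio was -0.21, and 19 of 208 genes of like level (9.13%) had a lower ratio. G6pc and Slc37a4, whose products work together at the last step, were nearly level between the libraries. G6pc was 106 FPKM in wild type against 109 in the knockout library, and Slc37a4 was 38.2 and 38.6. Their log2 ratios were 0.04 and 0.02 as deposited, 0.19 and 0.17 relative to the all-gene median, and -0.12 and -0.14 after rescaling to equal sums, so neither has a direction that holds under each scaling. The level of G6pc relative to Slc37a4 was 2.77 in wild type against 2.81 in the knockout library. The paralogs of the enzymes were far less abundant. Pck2, the mitochondrial isozyme of Pck1, was 0.479 FPKM in wild type against 0.801 in the knockout library, and G6pc3, the widely expressed relative of G6pc, was 3.73 and 3.13. Fbp2 and the Ppargc1a relative Ppargc1b were not analysed here.

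The plot of member ratios by setting shows how each value moved with the scaling. Crtc2 was at least 1.5-fold lower under all 10 settings shown there (the reported one and 9 alternatives), with log2 ratios between -0.95 and -0.59, the latter after length correction and past the threshold by a margin in the third decimal. The ratio of Pck1 was positive under all 10, between 0.28 and 0.64, but was past 1.5-fold under 5 of them. Pcx, Fbp1 and Gcgr were negative under each of the 10 settings.

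**Figure D2:**
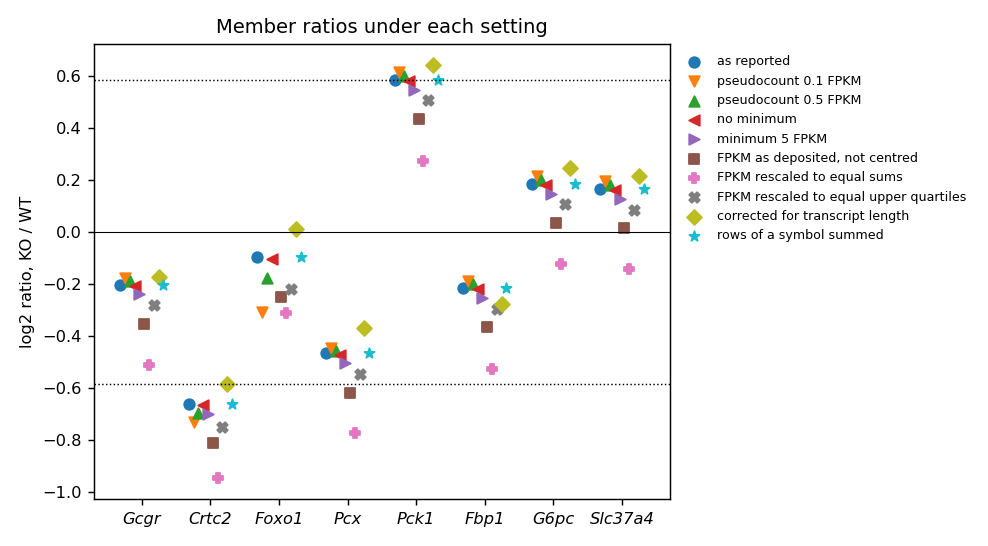
Log2 ratio of knockout to wild-type FPKM for the 8 measured members under the reported setting and 9 alternatives (symbols), with dotted lines at 1.5-fold. Crtc2 lies between -0.95 and -0.59 and Pck1 between 0.28 and 0.64, whereas G6pc and Slc37a4 cross 0 when FPKM are rescaled to equal sums and Foxo1 does so after length correction.

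Transcript length moved with the ratio across the transcriptome. Over the 11571 genes with a length (the longest protein-coding transcript in GENCODE vM21), the Spearman rho between ratio and length was -0.44. This correlation is across genes, which share the same 2 libraries and are not independent replicates. The lengths of the measured members ran from 1479 bases for Fbp1 to 8665 for Foxo1. The running median of the ratio over genes of like length was -0.06 at the length of Pck1 (2661 bases), -0.08 at that of Crtc2 (2747 bases) and -0.10 at that of Pcx (4148 bases). These 3 members therefore stood at 0.64, -0.59 and -0.37 after subtraction of that median. Fbp1, the shortest, moved from -0.21 to -0.28, and Gcgr from -0.20 to -0.17. The part of length in the members' differences was not tested beyond this correction.

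**Figure D3:**
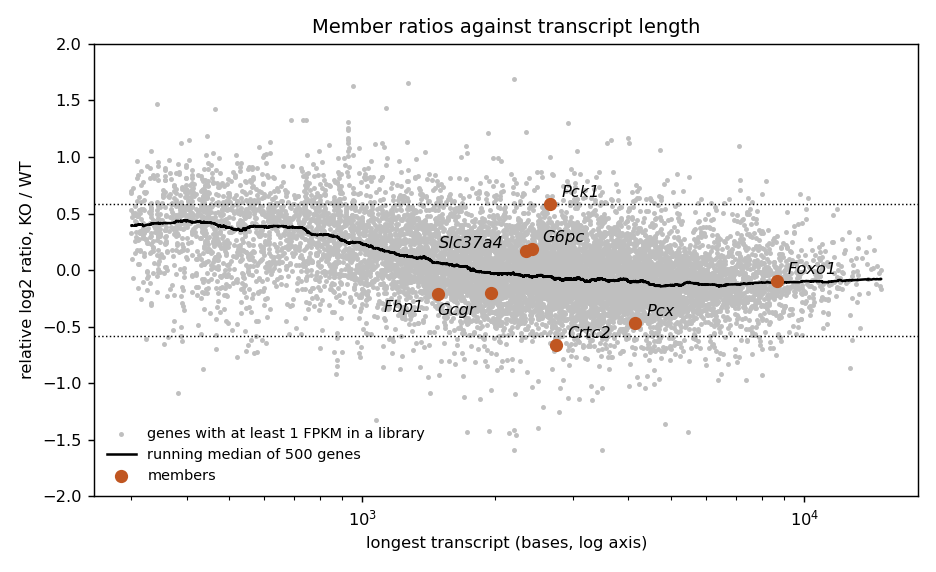
Relative log2 ratio (knockout over wild type) against the length of the longest transcript (log axis) for all measured genes (grey), their running median over 500 genes (line) and the 8 measured members. Dotted lines mark 1.5-fold, and genes outside the plotted ranges are not drawn; Pck1 lies above the line at 0.59, and Crtc2 (-0.66) and Pcx (-0.47) lie below it.

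Irreversible steps of gluconeogenesis are opposed by enzymes that use the same metabolites the other way. Levels were compared within each library for 3 pairs, of which Pcx and Pdha1 compete for pyruvate and do not run opposite reactions. These pairs were chosen after the values were seen. Pklr, the liver pyruvate kinase, was 94.6 FPKM in wild type against 62.8 in the knockout library, and the ratio of Pck1 to Pklr was 1.53 and 3.12. At the fructose phosphate step Pfkl, the liver phosphofructokinase, was 12.9 and 10.05, and the ratio of Fbp1 to Pfkl was 60.5 and 60.1. The ratio of Pcx to Pdha1, a subunit of the pyruvate dehydrogenase complex that competes for pyruvate, was 1.56 and 1.48. Of the 3 ratios, that at the phosphoenolpyruvate step was thus higher in the knockout library, and the others differed by a few percent of the wild-type ratio. These ratios were not corrected for transcript length. After that correction the relative log2 ratio was 0.64 for Pck1 and -0.35 for Pklr. It was -0.28 for Fbp1 and -0.08 for Pfkl, so this pair was less level, and -0.37 for Pcx and -0.29 for Pdha1.

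**Figure D4:**
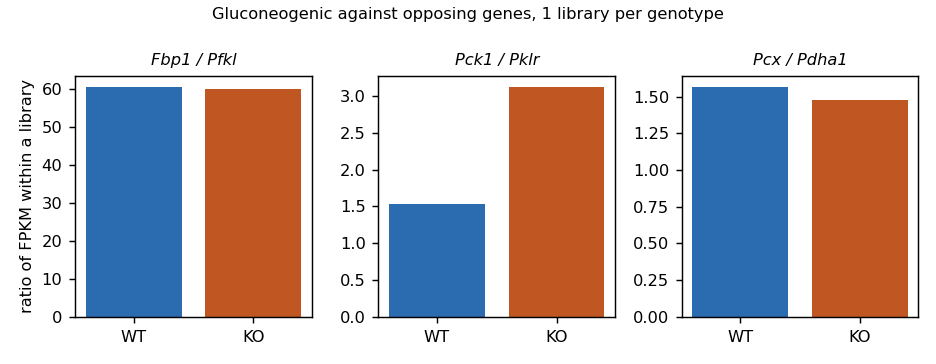
FPKM of a gluconeogenic gene divided by that of the opposing gene (for Pcx, of Pdha1, whose product competes for pyruvate). Values are for the wild-type (WT) and Adipoq-/- (KO) library, 1 library per genotype and no error bars. The ratio Pck1 / Pklr (1.53 and 3.12) is higher in the knockout library, and Fbp1 / Pfkl (60.5 and 60.1) is nearly level. No correction for transcript length was made here.

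The wider pathway was described by 6 further lists. The remaining enzymes of gluconeogenesis, most of which also serve glycolysis, stayed close to all genes. Of 13 measured, 5 were above and 8 below the all-gene median, 0 were past 1.5-fold in either direction, and the list median was -0.04. Genes for the entry of lactate, alanine, glycerol and amino acids had 7 of 20 above and 13 below the median, 0 past 1.5-fold and a list median of -0.14. Tat, the tyrosine aminotransferase induced by glucocorticoids and glucagon, was the most abundant of these at 470.2 and 440.5 FPKM.

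In the signalling lists the counts past 1.5-fold are read beside 9.34% of all genes in either direction, a share that in lists of this size gives few genes. Of 19 measured genes of glucagon and cyclic AMP signalling, 8 were above and 11 below the median (list median -0.13, and -0.05 after length correction). The 1 gene past 1.5-fold was the phosphodiesterase Pde7a, named after its value was seen, at 1.52 FPKM in wild type against 0.379 in the knockout library. After length correction Sik3, a salt-inducible kinase that restrains CRTC2, also named after its value was seen, was at least 1.5-fold higher (0.68, and 0.55 without the correction). Under that correction 2.97% of all genes with a length were at least 1.5-fold higher and 2.72% lower. Gnas, the stimulatory G protein subunit that couples the glucagon receptor to adenylyl cyclase, was 233 and 212 FPKM (relative log2 ratio 0.01). Of 18 measured genes of insulin, AKT and FOXO control, 15 were below the median and 0 past 1.5-fold (list median -0.13, and -0.01 after length correction). Stk11, which encodes the kinase LKB1 upstream of AMP-activated kinase, was the most abundant there at 38.3 and 33.9 FPKM. Of 19 other transcriptional regulators, 16 were below the median and 0 past 1.5-fold (list median -0.15). After length correction 12 were below it and the list median was -0.08. Hnf4a, a nuclear receptor that binds the Pck1 and G6pc promoters, was 91.0 and 71.9 FPKM (-0.18).

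The list of genes of glycolysis and pyruvate control had the lowest median of the 7 lists, -0.38 (-0.29 after length correction). Of its 13 measured genes, 12 lay below the median of all genes and 3 passed 1.5-fold downwards, beside 2.61% of all genes. These were Pdk4 (5.04 FPKM in wild type against 1.64 in the knockout library), Pdk1 (43.2 and 24.5) and Pfkfb1 (25.7 and 14.8). Pdk4 and Pdk1 encode kinases that switch off pyruvate dehydrogenase, and Pfkfb1 the bifunctional enzyme that sets fructose-2,6-bisphosphate, an inhibitor of fructose-1,6-bisphosphatase. After length correction 1 of the 3, Pdk4 (-0.97), was still past 1.5-fold, with Pdk1 at -0.51 and Pfkfb1 at -0.58. The share of all genes with a length that were at least 1.5-fold lower was then 2.72%. The difference between this list and the gluconeogenesis members was not tested.

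**Figure D5:**
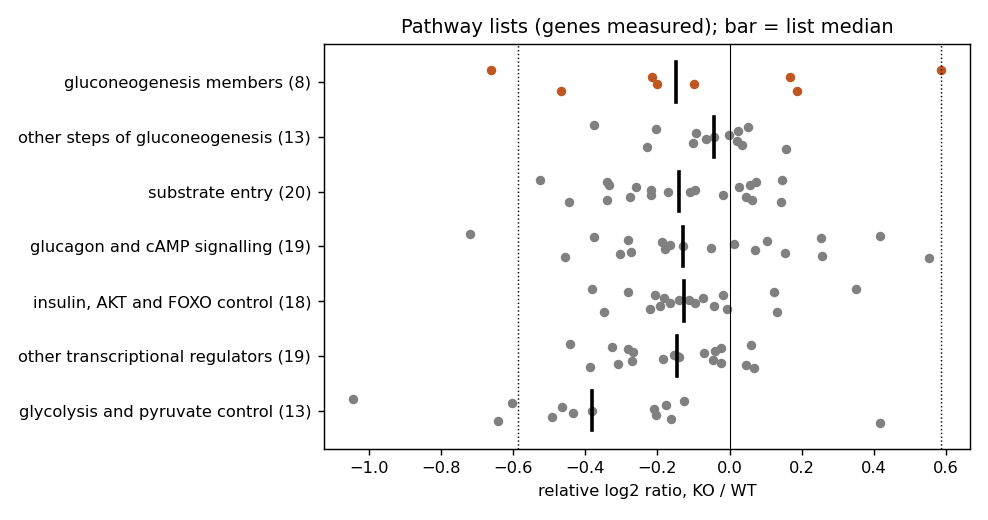
Relative log2 ratio (knockout over wild type) of each measured gene (points) in the gluconeogenesis members and 6 further lists, with the list median (bar), 0 for the all-gene median (solid line) and 1.5-fold (dotted lines). The numbers in parentheses are genes measured; the members spread from -0.66 to 0.59 around a median of -0.15, and the genes of glycolysis and pyruvate control have a median of -0.38.

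The liver label was checked against markers. Of 6 hepatocyte markers 5 had values, led by Alb at 17522 FPKM in wild type against 14031 in the knockout library. Gluconeogenesis is strongest in the hepatocytes around the portal vein. The 8 periportal genes had a median relative log2 ratio of 0.002, against -0.05 for 7 measured pericentral genes, both with 0 past 1.5-fold. After length correction these medians were 0.02 and 0.05, so their order was reversed. In bulk liver, fewer cells of a type and less RNA per cell cannot be told apart. Adipocytes also express Pck1 and Pcx. Of 6 adipocyte markers 2 had values (Cfd and Cidea) and both were at least 1.5-fold lower in the knockout library, while Plin1, Plin4, Lep and Retn were not analysed here. The summed level of Cfd and Cidea was 14.3 FPKM in wild type against 2.15 in the knockout library. Most of it was Cfd, at 13.3 and 2.01. Cidea, at 1.03 and 0.146, was close to the 1 FPKM minimum in wild type and below it in the knockout library. The part of adipocytes in the values of Pcx and Pck1 was not tested. All 8 measured Kupffer cell markers were above the all-gene median, with summed levels of 158 and 167 FPKM, and 1 of them, Marco (1.26 and 3.72 FPKM), was at least 1.5-fold higher. The sums for sinusoidal endothelium were 69.0 and 76.0 and for stellate cells 84.7 and 87.8. All 3 measured erythroid markers were above the all-gene median, with sums of 7428 and 8617 FPKM, though Alas2 was 113 and 109 FPKM as deposited. After length correction Alas2 was above the median (0.13) and Hba-a1 just below it (-0.005), and Hbb-b1 had no length. Of 5 pancreatic markers 1 had a value, the acinar Cela2a, which was at least 1.5-fold higher at 0.517 and 1.96 FPKM. The part of these cells in the members' values was not tested. Of the markers of kidney proximal tubule, the other organ of gluconeogenesis, 0 of 4 had values.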

How the data were processed

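Liver RNA of 2 pooled libraries was analysed, 1 of wild-type and 1 of Adipoq-/- mice, each assigned by its genotype label. The deposited values were FPKM. Per the submitters' processing notes, the authors used TopHat and Cuffdiff with the builds mm9 and NCBIM37. Program versions, the gene annotation and row filters are not stated there. Both tables list the same 13352 rows, with 26 symbols in 2 rows, where the row of higher mean FPKM was used. Summed FPKM came to 798170 for wild type and 891964 for the knockout. Read counts were not analysed here, so the depth is unknown. Whole reads could not be recovered from the low values, since no more than 5 of 1298 genes above 0 and below 1 FPKM in each library shared 1 log2 ratio to 3 decimals.

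Ratios were computed in Python 3.11.15 with pandas 2.3.3 and numpy 2.4.6, and the functions were tested on simulated data. No test across samples is possible with 1 library per genotype. Transcript lengths came from GENCODE vM21 and covered 96.5% of the measured genes. The length correction subtracted a running median over 500 genes. Alternatives were a pseudocount of 0.1 or 0.5 FPKM, a minimum of 5 FPKM or none, 3 other scalings, length correction, summed duplicate rows and a 2-fold threshold. Named genes are the 9 members, the paralogs listed for them, and from each further list the most abundant gene and up to 2 in each direction past 1.5-fold with at least 5 FPKM. Pde7a, Sik3, Pfkfb1, Pfkl, Pdha1 and the cell markers fall outside that rule. Pde7a, Sik3, Pfkfb1 and the gene pairs compared within a library were chosen after their values were seen. Some genes that the rule takes are left out of the text. The members and lists were chosen with earlier results of these data known.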

Additional observations from a re-analysis of the deposited data

How the results depend on the processing

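Crtc2 was at least 1.5-fold lower, with the same sign, under each alternative but the 2-fold threshold, under which 0 members were higher and 0 lower. Pck1 fell short of 1.5-fold, leaving 0 members higher, with no minimum, with a minimum of 5 FPKM, with FPKM as deposited, after rescaling to equal sums and after rescaling to equal upper quartiles. Members at least 1.5-fold lower numbered 2 (Crtc2 and Pcx) with FPKM as deposited and 2 after rescaling to equal sums. Beside them, 6.17% and 12.6% of all genes were at least 1.5-fold lower under these scalings. The median ratio of the members was -0.30 with FPKM as deposited, -0.41 after equal sums and -0.25 after equal upper quartiles, where the median of all genes was -0.15, -0.28 and -0.09, and it was -0.08 after length correction. Among all genes, those at least 1.5-fold higher made up 72.0% of the genes past that fold as reported, 34.4% as deposited, 10.5% after equal sums, 49.6% after equal upper quartiles, 52.2% after length correction and 61.7% with a pseudocount of 0.1 FPKM. No paired analysis was possible because each genotype has 1 library. No library could be left out for the same reason. The unknown depth leaves the low values of Foxo1 and Ppargc1a without an error.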
